A study of Mus musculus with 6 samples.

Results

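The genes of glucose uptake, glycolysis and the fate of pyruvate were followed in the BALB/c mouse colon carcinoma line CT26, which grows in culture and as grafts, after knockdown of Sep15 (current symbol Selenof), a selenoprotein of the endoplasmic reticulum. The set was a list of 35 genes, taken by their symbols in the array annotation. Of these, 32 had a probe set that carried their symbol alone, out of 18194 genes measured so in all; Gpi1, Pfkfb1 and Eno1 had none and were not analysed here. Each gene was represented by its probe set with the highest mean over all 6 arrays.

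Both groups were CT26 cells that carried the pU6-m3 vector, which drives short RNAs from a U6 promoter. The 3 control samples had the empty vector. The 3 shSep15 samples had the vector with a hairpin against Sep15, built on a 19-nucleotide stretch of the mouse cDNA, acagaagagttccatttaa. A single hairpin construct was used, the 3 samples of a construct were different mRNA preparations, and the labels do not say whether the cells were clones or pools, or whether separate transfections were made. Every sample had its own Affymetrix Mouse430_2 array, and values are log2 units of RMA, a summary of the probes of a set after normalization between arrays.

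The targeted transcript was low in the cells labelled knockdown: Selenof read 12.41, 12.44 and 12.35 (log2) on the control arrays and 9.34, 9.59 and 9.50 on the shSep15 arrays. Array medians lay between 5.83 and 5.88. The log2 difference between the 3′ and 5′ probe sets of Gapdh, a sign of RNA integrity, was −0.12 to −0.08 on control arrays and −0.10 to −0.01 on shSep15 arrays. A gene with both group means under log2 6.02, the 95th percentile of olfactory and vomeronasal receptor probe sets, is called near background.

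Markers of colon epithelium and of other cell types also differed between the groups. Of 10 colon epithelial markers, 5 exceeded the background level in a group. Krt18 and Krt20 fell, with log2 differences of −2.16 and −2.13, and Lgals4 fell from a mean of 6.85 to 5.84, while Epcam (7.59 and 7.55) and Krt8 (6.07 and 6.06) were not called and Cdh1, Krt19, Vil1, Cdx2 and Cldn7 were near background. The mean of the 10 was 5.97 to 6.13 on control and 5.39 to 5.56 on shSep15 arrays. All 6 fibroblast markers exceeded the level and all changed, in both directions: Pdgfrb, Col3a1 and Dcn fell, with differences of −3.36, −2.27 and −1.72, and Pdgfra, Col1a1 and Col1a2 rose by 1.35, 1.32 and 0.64. Their mean, 9.12 to 9.27 on control and 8.25 to 8.83 on shSep15 arrays, therefore joins opposite changes. Of 7 leukocyte markers measured 3 exceeded the level; Cd14 fell (−0.73), as did Itgam near background (−0.37), and Csf1r, Cd3e, Ptprc, Cd79a and Adgre1 were not called. The leukocyte mean was 6.10 to 6.24 on control and 6.02 to 6.22 on shSep15 arrays, with Ptprc, which defines leukocytes, at 4.14 and 4.23. Of 5 endothelial markers 2 exceeded the level, Vwf and Kdr. Vwf fell (−1.45), but it read under the level on control 3 and on every shSep15 array. Kdr, Pecam1, Cdh5 and Tek were not called, with differences of −0.03, 0.02, 0.01 and 0.04. The endothelial mean was 5.29 to 5.54 on control and 5.14 to 5.20 on shSep15 arrays, and its fall came from Vwf alone. The part of these differences in the results was not tested. In samples of whole cultures, fewer cells of a kind and less RNA per cell cannot be told apart.

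Glycolysis splits glucose into pyruvate. Cells take glucose up through facilitative carriers, trap it by phosphorylation, and commit it at phosphofructokinase, whose activity is set by fructose 2,6-bisphosphate. Pyruvate is either reduced to lactate, which leaves the cell through monocarboxylate carriers, or enters the mitochondrion, where the pyruvate dehydrogenase complex oxidises it unless kinases switch the complex off. Most steps are served by several isoforms from separate genes, and tumour cells are known for high use of glucose with release of lactate.

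The comparison asked which of these transcripts differed once Sep15 was knocked down. Genes rose in all 5 stages described here, but isoforms of a stage moved unequally, and some fell. The knockdown cells had 14 of the 32 measured genes higher and 4 lower at the adjusted limma threshold of 0.05; among all genes 12.2% were called higher and 12.8% lower. The 18 called genes were all among the 26 above background, where over all genes 19.2% were higher, 20.0% lower and 39.2% called either way. The arrays of the groups did not overlap for 22 of the 32, against 38.1% of all genes. Above background they did not overlap for 19 of the 26, against 55.2% of all such genes. The median log2 difference of the 32 was 0.14, against 0.01 for all genes. Genes at least 2-fold higher were Pfkl, Slc16a3, Pdk1 and Aldoa, and Eno2 was the 1 gene at least 2-fold lower.

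**Figure D1:**
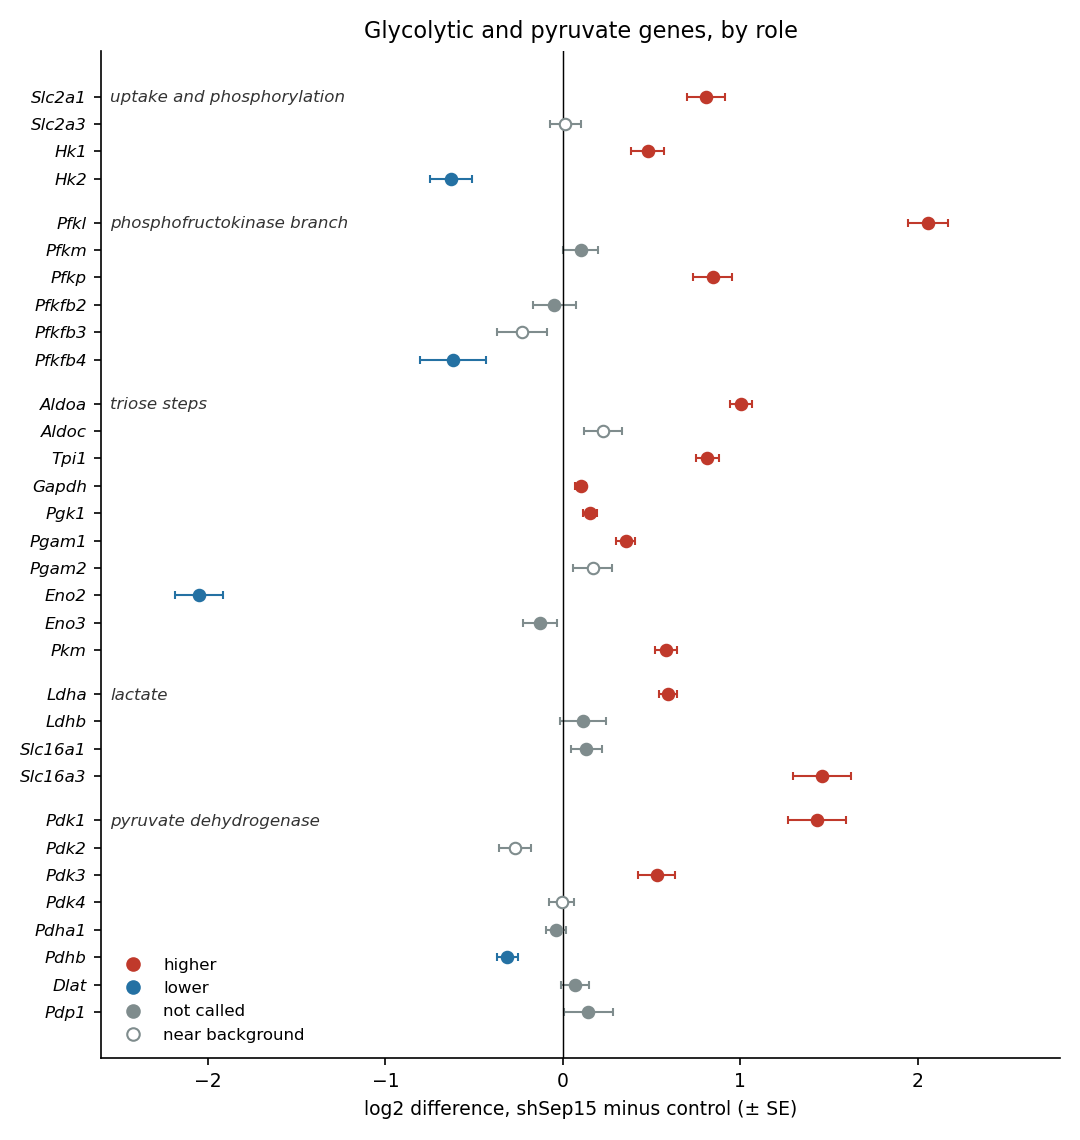
Log2 difference (shSep15 minus control) of the 32 measured genes, grouped by role from top to bottom, with bars of 1 SE from limma; red and blue points are past the adjusted threshold of 0.05 and open points are near background. Pfkl at 2.06 and Eno2 at −2.05 mark the ends of the range, and most called genes lie right of 0.

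Slc2a1, the glucose carrier GLUT1 present in most growing cells, rose. It read 9.66, 9.74 and 9.45 (log2) on the control arrays and 10.51, 10.49 and 10.28 on the shSep15 arrays. Every shSep15 array was above every control array, a log2 difference of 0.81 (SE 0.11, limma adjusted p = 0.00074), or 1.75-fold. The gene's 2 further probe sets rose by 0.59 and 0.84. Slc2a3, the carrier GLUT3 typical of neurons, was near background on its 4 probe sets, with group means of 4.88 and 4.90 on the brightest.

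The hexokinases, which phosphorylate glucose on entry, moved in opposite directions. Hk1, the form found in most tissues, read 9.55, 9.70 and 9.48 (log2) in control and 10.07, 10.09 and 10.01 in shSep15 samples. Its log2 difference was 0.48 (SE 0.09, limma adjusted p = 0.00535). The other probe set with the Hk1 symbol alone was higher by 0.21 without passing the threshold (limma adjusted p = 0.272). A probe set that names Hk1 beside other symbols was set aside and was not called (−0.07, limma adjusted p = 0.616). With means of 13.06 and 13.00 it was brighter than the Hk1 probe set used, whose means were 9.58 and 10.06. Hk2, the inducible form of muscle and many tumours, read 10.77, 10.88 and 10.94 in control and 10.33, 10.40 and 9.97 in shSep15 samples. The groups were apart in both genes, and shSep15 3 was the lowest for Hk2, which fell by 0.63 (log2, SE 0.12, limma adjusted p = 0.00429). Hk2 rests on 1 probe set. Taken within each array, the log2 value of Hk1 minus that of Hk2 was −1.45 to −1.18 on control arrays and −0.30 to 0.04 on shSep15 arrays. The shift was 1.11 (SE 0.14), or 0.97 with the mean of each gene's probe sets, each with exact permutation p = 0.10, two-sided.

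That p is the smallest that 3 against 3 arrays can give. In all, 9 isoform pairs with both genes above background were compared in this way, and in each the groups were apart, so that every pair had p = 0.10 in the exact permutation test, before and after Benjamini-Hochberg adjustment. This test therefore cannot pass a threshold of 0.05 with these arrays, and the shifts are given with their SE over arrays.

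Phosphofructokinase, the committing step, had the greatest rise of the set. Pfkl, named for the liver form of the enzyme, read 9.02, 9.08 and 9.05 (log2) in control and 11.14, 11.30 and 10.88 in shSep15 samples. The difference of 2.06 (SE 0.11, limma adjusted p = 5.87e-06) is 4.16-fold. The 2 other Pfkl probe sets above background rose by 1.71 and 0.44, and the mean of all 3 rose by 1.40. Pfkp, the platelet form, read 8.40, 8.36 and 8.23 in control and 9.26, 9.23 and 9.03 in shSep15 samples and rose by 0.84 (SE 0.11, limma adjusted p = 0.000642), or by 0.54 as the mean of its 3 probe sets. Pfkm, the muscle form, read 8.83 to 8.84 in control and 8.87 to 9.01 in shSep15 samples, a difference of 0.10 (SE 0.10) that was not called (limma adjusted p = 0.575). Within arrays, Pfkl shifted against Pfkm by 1.96 (log2, SE 0.11) and against Pfkp by 1.21 (SE 0.09), and Pfkm against Pfkp by −0.74 (SE 0.09). With the mean of each gene's probe sets in place of the brightest, these shifts were 1.30, 0.87 and −0.43.

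Of the measured bifunctional enzymes that make and remove fructose 2,6-bisphosphate, the activator of phosphofructokinase, none was called higher. Pfkfb4 read 7.52, 7.45 and 7.71 (log2) in control and 6.81, 6.64 and 7.37 in shSep15 samples. The arrays were apart, but shSep15 3 came close to the lowest control array. The difference of −0.62 (SE 0.19) passed the threshold narrowly (limma adjusted p = 0.0461), and it was lost when any control array, or shSep15 1 or 2, was left out (0.0922 to 0.164). Pfkfb2 was lower by 0.05 (limma adjusted p = 0.858), with overlapping groups. Pfkfb3 was near background, at 5.98 in control and 5.75 in shSep15 cells, and not called. Its dimmer probe set, also near background, was called lower, at 4.84 and 4.49 (log2 difference −0.36, limma adjusted p = 0.0319), with groups that did not overlap.

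**Figure D2:**
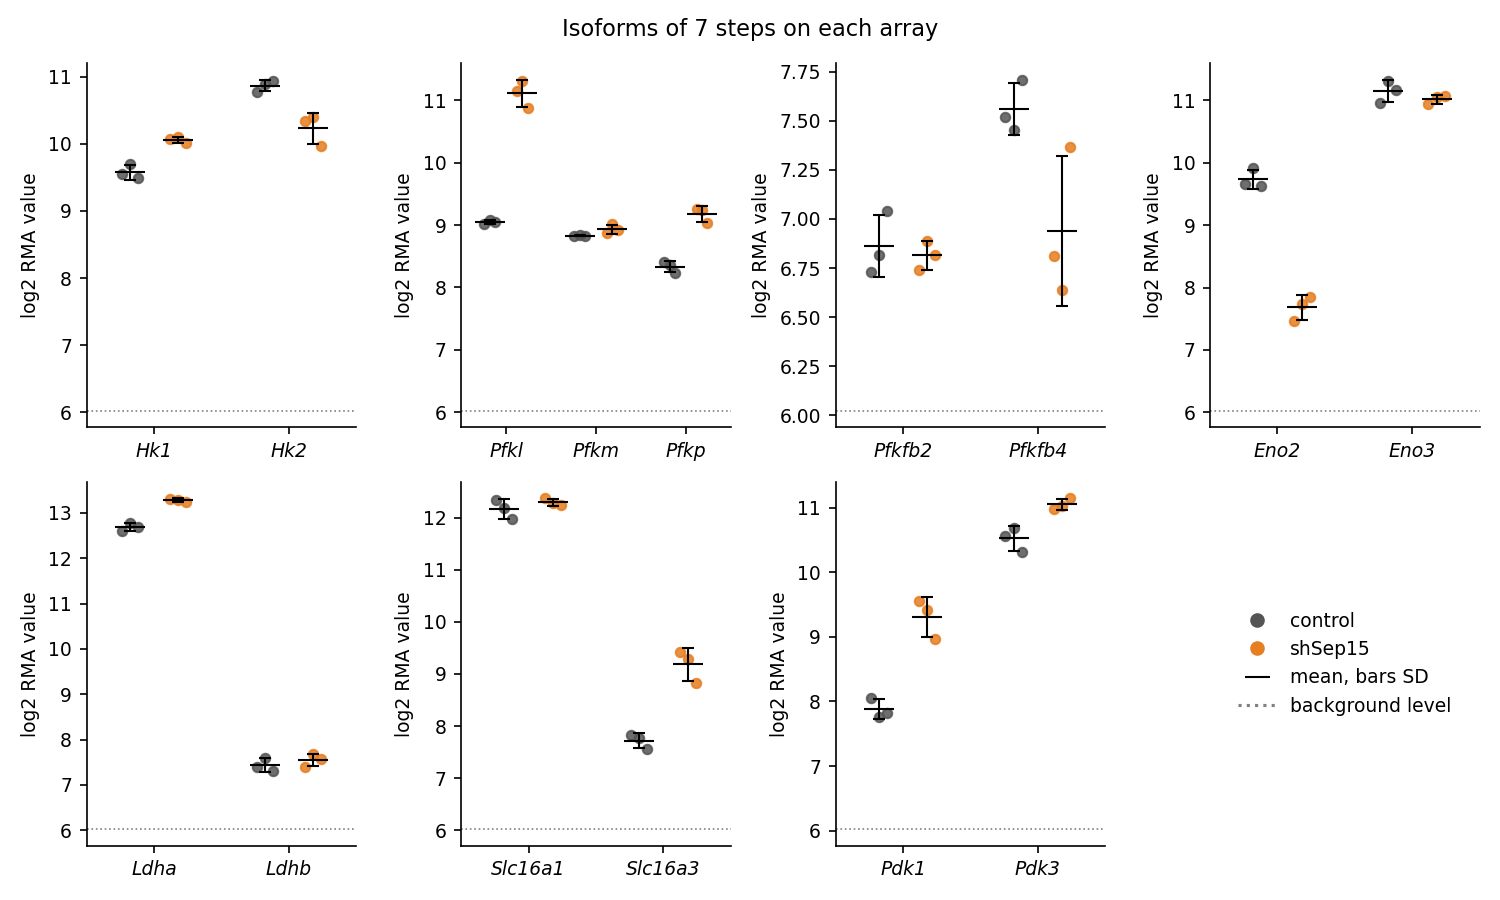
Log2 RMA value on each array for isoforms of 7 steps, control arrays in grey and shSep15 arrays in orange, with group mean and SD; the dotted line is the background level of 6.02, and axes differ between panels. Hk1 and Hk2 change in opposite directions, Pfkl stands above its control arrays by 2.06, and Eno2 falls while Eno3 overlaps.

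From aldolase to pyruvate kinase, the bright form of each measured step but enolase was called higher. Aldoa, the main aldolase outside liver and brain, read 11.77, 11.94 and 11.79 (log2) in control and 12.81, 12.92 and 12.79 in shSep15 samples. It rose by 1.01 (SE 0.06, limma adjusted p = 1.01e-05), while its 4 other probe sets rose by 0.77 to 1.33. Tpi1, which interconverts the triose phosphates made by aldolase, read 12.09, 12.31 and 12.28 in control and 13.08, 13.08 and 12.97 in shSep15 samples and rose by 0.81 (SE 0.06, limma adjusted p = 3.77e-05). The further 2 probe sets rose by 0.81 and 1.07. The groups of both genes were far apart for their spread.

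The next steps rose less on the log2 scale. Pgam1, the phosphoglycerate mutase of most tissues, read 12.17 to 12.32 in control and 12.58 to 12.64 in shSep15 samples, a log2 difference of 0.35 (SE 0.05, limma adjusted p = 0.00138). Pgk1, the first ATP-forming step, was higher by 0.15 (SE 0.04, limma adjusted p = 0.0301), with group means of 13.25 and 13.41. Its 2 other probe sets, which are dimmer, rose by 0.29 and 0.31. The Pgk1 call ended without the eBayes trend (limma adjusted p = 0.26), with the arrays shifted to the same median (0.0503), and when control 1, control 3 or any shSep15 array was left out (0.0518 to 0.129).

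Gapdh, the dehydrogenase often used as a reference transcript, was higher by 0.10 (log2, SE 0.03, limma adjusted p = 0.0477) on the brightest of 3 probe sets that carried its symbol alone. The call ended with either rescaling of the arrays (limma adjusted p = 0.11 and 0.0676), without the trend (0.459), with the mean of the probe sets (0.0917), and when any array except control 2 was left out (0.0713 to 0.142). The 2 other such probe sets were not called. Only 25 of 45050 probe sets had a higher mean than the Gapdh one used and 146 a higher mean than that of Pgk1, so both were read near the top of the scale. Probe sets that name Gapdh beside other symbols were set aside. Their log2 differences were 0.09, 0.44 and 0.91, and only the last was called (limma adjusted p = 0.00408).

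Enolase, which forms phosphoenolpyruvate, had the greatest fall. Eno2, the enolase typical of neurons, read 9.65, 9.91 and 9.63 (log2) in control and 7.47, 7.73 and 7.85 in shSep15 samples. The highest shSep15 array was below the lowest control array by over 1 log2 unit, and the difference was −2.05 (SE 0.13, limma adjusted p = 1.43e-05), a 4.14-fold fall on the gene's 1 probe set. Eno3, the muscle form, read 10.96 to 11.31 in control and 10.93 to 11.07 in shSep15 samples, with a difference of −0.13 (SE 0.10, limma adjusted p = 0.444). Within arrays Eno2 shifted against Eno3 by −1.92 (log2, SE 0.10). Eno1, the enolase of most dividing cells, was among the genes not analysed here, so the direction of enolase as a whole is not given by these values.

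Pkm, which encodes the pyruvate kinases of muscle and tumours, read 12.53, 12.70 and 12.70 (log2) in control and 13.24, 13.30 and 13.14 in shSep15 samples. It rose by 0.58 (SE 0.06, limma adjusted p = 0.000184), on 1 probe set. Aldoc and Pgam2, forms of brain and of muscle, were near background, with differences of 0.23 and 0.17 that were not called.

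The lactate branch rose in 1 enzyme and 1 carrier of each pair. Ldha, the subunit that favours lactate formation, read 12.61, 12.77 and 12.68 (log2) in control and 13.32, 13.29 and 13.23 in shSep15 samples and rose by 0.59 (SE 0.05, limma adjusted p = 5.74e-05). Ldhb, the heart subunit, overlapped between groups, with means of 7.43 and 7.55 and a difference of 0.11 (SE 0.13, limma adjusted p = 0.642). Within arrays Ldha shifted against Ldhb by 0.48 (log2, SE 0.11).

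Slc16a3, the carrier MCT4 of cells that export much lactate, read 7.83, 7.78 and 7.57 (log2) in control and 9.43, 9.29 and 8.83 in shSep15 samples. It rose by 1.46 (SE 0.16, limma adjusted p = 0.000262), or 2.75-fold, with shSep15 3 the lowest of its group. Slc16a1, the widespread carrier MCT1, was bright in both groups, with means of 12.16 and 12.30, and its arrays overlapped (difference 0.13, SE 0.09, limma adjusted p = 0.395). Slc16a1 shifted against Slc16a3 by −1.33 (log2, SE 0.15) within arrays.

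At the entry to the mitochondrion, kinases that switch off pyruvate dehydrogenase rose while a subunit of the complex fell. Pdk1 read 8.05, 7.76 and 7.81 (log2) in control and 9.55, 9.42 and 8.96 in shSep15 samples, a rise of 1.43 (SE 0.16, limma adjusted p = 0.000294), or 2.70-fold. Its 2 other probe sets above background rose by 1.37 and 1.01, and the mean of all 4 by 1.02. Pdk3 read 10.56, 10.69 and 10.32 in control and 10.98, 11.03 and 11.15 in shSep15 samples and rose by 0.53 (SE 0.10, limma adjusted p = 0.00564). Every shSep15 array exceeded every control array in both. Pdk1 shifted against Pdk3 by 0.90 (log2, SE 0.27), and by 0.49 with the mean of the probe sets. The kinases Pdk2 and Pdk4 were near background, at means of 4.34 to 4.61 and 3.86 to 3.87.

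Pdhb, the β subunit of the dehydrogenase, read 12.18, 12.18 and 12.02 (log2) in control and 11.82, 11.82 and 11.79 in shSep15 samples and fell by 0.31 (SE 0.06, limma adjusted p = 0.00536). Its dimmer probe set, with means of 6.61 and 6.62, was not called, and the mean of both was lower by 0.15 without passing the threshold (limma adjusted p = 0.251). Pdha1, the α subunit, was not called on its brighter probe set (−0.04, limma adjusted p = 0.731) but lower on the other, which is nearly as bright (−0.31, limma adjusted p = 0.0105). Dlat, the acetyltransferase core, and Pdp1, the phosphatase that switches the complex back on, differed by 0.07 and 0.14 with overlapping groups.

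More than 1 probe set above background carried the symbol alone for 13 genes. In 9 of them the other such probe sets all had the brightest one's call, and the exceptions were Gapdh, Hk1, Pdha1 and Pdhb. The replicates differed little: the median SD of the 26 genes above background was 0.11 (log2) in control and 0.07 in shSep15 samples, and the largest was 0.38, that of Pfkfb4. Of the 14 genes that rose, 12 were lowest, among the shSep15 arrays, on shSep15 3, where 34.9% of all genes called higher had their lowest value. The median rise of the 14 was 0.74, 0.75 and 0.64 on shSep15 1, 2 and 3. Without shSep15 3, 12 were called higher, those lost being Gapdh and Pgk1.

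Genes above background on chromosomes 3 and 4 had median log2 differences of 0.26 and 0.16, so each gene was set beside its neighbours. The value given is the median log2 difference of the 10 nearest genes above background on either side in the RefSeq gene order (13 for Pdhb and 19 for Pdk4 in all). For 14 of the 18 called genes that median was under 0.15 in size, among them Pfkl (−0.12), Pdk1 (−0.07), Aldoa (0.04), Slc2a1 (0.11), Hk2 (0.03) and Eno2 (−0.01). Pfkp and Slc16a3, with neighbour medians of 0.23 and 0.19, rose among genes that were higher, and Pdhb (−0.31) lay among genes lower by a median of 0.28. Pkm rose by 0.58 where its neighbours were lower by a median of 0.49, with 12 of 20 called lower. Without the 6 measured genes on chromosomes 3, 4, 17, 18 and X, 11 genes were higher and 4 lower; this alternative was chosen after seeing the data. Of those 6, Slc2a1 and Pdp1 lie on chromosome 4 and Slc16a1 on chromosome 3, while Pgk1, Pdk3 and Pdha1 lie on X, whose genes had a median of −0.05. The part of neighbouring genes in the values of Pfkp, Slc16a3 and Pdhb was not tested.

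**Figure D3:**
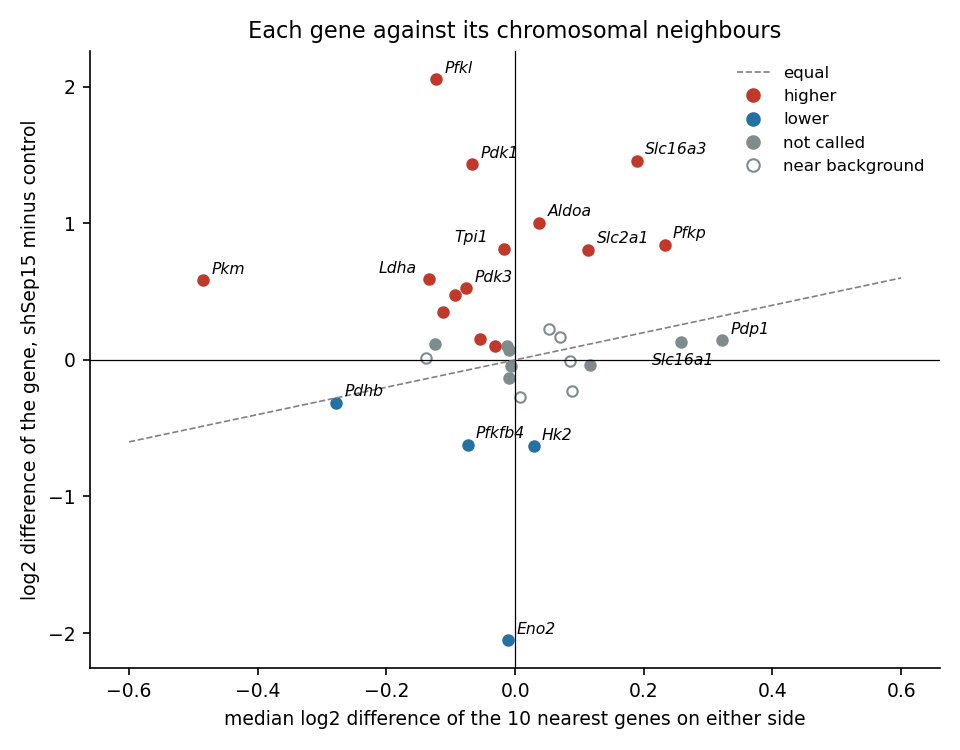
Log2 difference of each measured gene (vertical) against the median log2 difference of its 10 nearest genes above background on either side (horizontal), coloured by call, with a dashed line of equality; open points are near background. Pfkl, Pdk1, Aldoa and Eno2 lie far from the line beside neighbours with medians near 0, whereas Pdhb lies close to it.

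Promoter sequences were read for the 30 measured genes found in the RefSeq promoter table (GRCm38.p6; all but Slc2a3 and Pdp1), which gives 250 bases before and 50 after each start. The letters ACGTG and GCGTG, core forms of the site bound by hypoxia-inducible factors, were searched on both strands; ACGTG is also part of the E-box CACGTG. One of the cores was found for 13 of the 14 genes that rose, Tpi1 being the exception, for 3 of the 4 that fell, and for 10 of the 12 not called. A gene was counted if any of its promoters held a core. Counted so, the share over all genes of the promoter table was 46.7%, and over its single promoters it was 43.8%. Over the 9045 genes above background with a promoter there, the share of genes was 67.4%. It was 69.8% for genes called higher and 70.0% for genes called lower. The median GC content was 61.0% for the genes above background and 63.9% for the 14 genes that rose. It was 57.3% for the 11 other genes of the set above background with a promoter there, of which 9 held a core. The cores were frequent in the set whether or not a gene changed. A match is a description of the letters only.

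The 250 bases before the start are given for the 3 genes with the greatest rises and for Hk2 and Eno2, the 2 with the greatest falls, because genes of 1 pathway moved apart here. They run 5′ to 3′ on the gene's strand, with either core, on either strand, in capitals; for Pdk1 the first of 2 starts is shown. Coordinates are those of GRCm38.p6; the arrays carry none.
Pfkl (chr10:78009808-78010057, minus strand): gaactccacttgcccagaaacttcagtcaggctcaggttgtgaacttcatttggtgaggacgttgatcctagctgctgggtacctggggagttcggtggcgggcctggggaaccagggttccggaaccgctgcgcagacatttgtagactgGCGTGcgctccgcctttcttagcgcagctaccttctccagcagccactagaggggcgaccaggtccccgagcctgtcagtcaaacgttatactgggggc
Pdk1 (chr2:71872974-71873223, plus strand): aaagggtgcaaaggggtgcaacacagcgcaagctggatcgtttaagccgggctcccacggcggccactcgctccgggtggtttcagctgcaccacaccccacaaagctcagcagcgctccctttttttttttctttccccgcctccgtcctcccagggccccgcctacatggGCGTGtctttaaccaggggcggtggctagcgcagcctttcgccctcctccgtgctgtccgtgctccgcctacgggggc
Slc16a3 (chr11:120948817-120949066, plus strand): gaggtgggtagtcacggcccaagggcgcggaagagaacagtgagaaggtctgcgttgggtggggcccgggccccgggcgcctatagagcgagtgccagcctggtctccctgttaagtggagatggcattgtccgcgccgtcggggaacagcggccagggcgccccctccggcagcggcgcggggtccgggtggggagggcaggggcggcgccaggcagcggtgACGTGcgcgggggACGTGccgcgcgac
Hk2 (chr6:82774455-82774704, minus strand): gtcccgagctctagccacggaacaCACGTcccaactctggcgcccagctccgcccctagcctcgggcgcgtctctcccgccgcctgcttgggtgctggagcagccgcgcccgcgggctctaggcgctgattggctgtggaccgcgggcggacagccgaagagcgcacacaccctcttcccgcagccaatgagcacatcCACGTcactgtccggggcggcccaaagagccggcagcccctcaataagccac
Eno2 (chr6:124769674-124769923, minus strand): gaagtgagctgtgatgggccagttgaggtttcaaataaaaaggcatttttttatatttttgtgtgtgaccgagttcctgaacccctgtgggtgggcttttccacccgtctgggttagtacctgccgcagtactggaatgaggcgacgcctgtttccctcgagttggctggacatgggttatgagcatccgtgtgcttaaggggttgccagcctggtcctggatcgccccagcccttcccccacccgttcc
Slc16a3 held ACGTG 2 times close to its start, Hk2 held it 2 times as the complement, Pfkl and Pdk1 each held GCGTG 1 time, and Eno2 held neither.

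Other genes of glucose use, listed beside the set, moved both ways in nearly equal number. Of 57 listed genes 54 were measured and 35 were above background; 8 were higher and 7 lower, or 14.8% and 13.0% of those measured, near the 12.2% and 12.8% of all genes. Their median log2 difference was 0.01.

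In the glycogen and gluconeogenesis group 5 of 17 measured genes rose and 2 fell. The phosphoglucomutase Pgm1, which links glucose 6-phosphate with glycogen, rose by 1.19 (log2, SE 0.10, limma adjusted p = 5.87e-05). The transporter of glucose 6-phosphate into the endoplasmic reticulum, Slc37a4, rose by 1.17, the brain glycogen phosphorylase Pygb by 0.90, the branching enzyme Gbe1 by 0.56 and Pgm3, of the hexosamine route, by 0.56. Pcx, the carboxylase that turns pyruvate into oxaloacetate, fell by 0.86 (SE 0.12, limma adjusted p = 0.000948), and Pgm2 by 0.32.

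Of 6 measured genes for pyruvate entry and the dehydrogenase complex, 2 fell and 1 rose. Dld, the lipoamide dehydrogenase that the complex shares with others, averaged 11.50 (log2) in control and 10.64 in shSep15 samples and fell by 0.86 (SE 0.10, limma adjusted p = 0.000374). Pdhx, which binds it to the core, fell by 0.45, and Pdpr, the regulatory subunit of the phosphatase, rose by 0.54. Mpc1, of the mitochondrial pyruvate carrier, was lower by 0.13 and not called (limma adjusted p = 0.342).

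None of the 9 other listed carriers with an Slc2a symbol was called higher, but 4 of them were near background. Slc2a8 was higher by 0.32 without passing the threshold (limma adjusted p = 0.168), and Slc2a6 fell by 0.87 (log2, SE 0.13, limma adjusted p = 0.00155). The ADP-dependent glucokinase Adpgk fell by 0.48, but the mean of its probe sets was lower by 0.30 without passing the threshold (limma adjusted p = 0.0513). Bsg, the chaperone of MCT1 and MCT4, rose by 0.25. Txnip, an inhibitor of glucose uptake, fell by 0.49 (limma adjusted p = 0.0428), and Pgp, a phosphatase that clears side products of glycolysis, rose by 1.07. The calls of Bsg, Pdhx, Pdpr, Pgm2, Pgm3, Gbe1 and Txnip each ended without at least 1 of the arrays, at limma adjusted p of 0.0511 to 0.162. Txnip lost its call without any array but control 3, and Pgm3 without any but control 1. The Txnip call also ended without the eBayes trend, with a replicate block and with the same median (limma adjusted p = 0.0685, 0.0517 and 0.0524). That of Pgm3 ended with the same median (0.0528) and that of Bsg without the trend (0.0756).

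**Figure D4:**
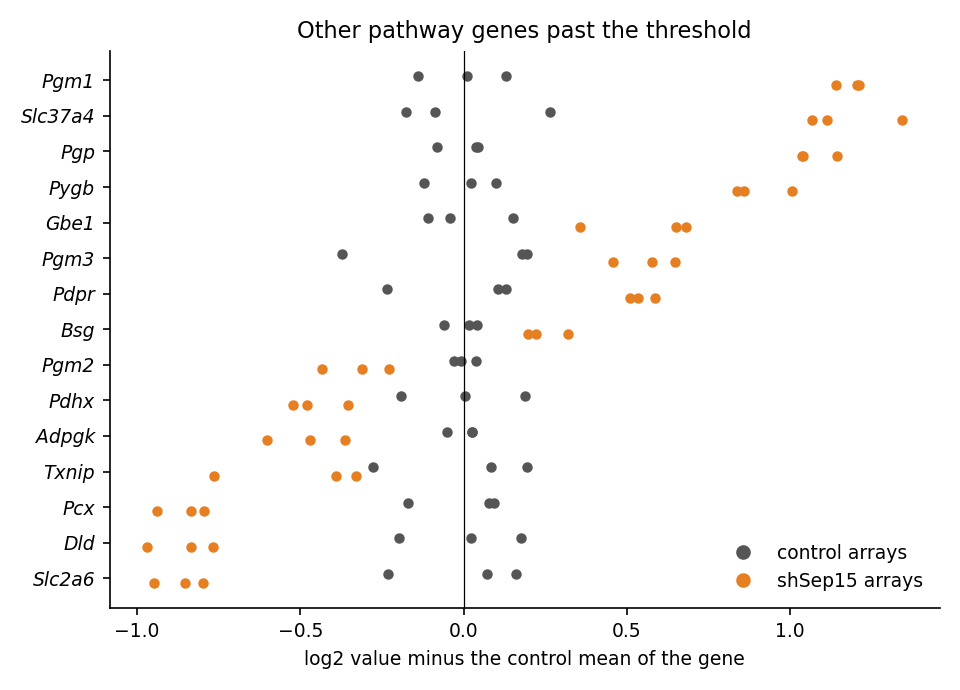
Log2 value on each array minus the gene's control mean for the 15 other pathway genes past the threshold, control arrays in grey and shSep15 arrays in orange. Pgm1, Slc37a4 and Pgp lie about 1 log2 unit above their control means, and Slc2a6, Dld and Pcx lie 0.86 to 0.87 below on average.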

How the data were processed

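Total RNA extracted with TRIzol was labelled as biotinylated cRNA, per the labels' protocols, and hybridised to 6 arrays, 3 control and 3 shSep15, grouped by the sample titles. The deposited log2 values were made by the authors with RMA, per the submitters' processing notes; its version is not given in the sources used here. Their range was 3.31 to 14.24. RMA sets the arrays' distributions alike, which hides any change in RNA content per cell, and it compresses differences of dim probe sets.

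The table had 45101 probe sets, of which 51 array controls were left out; 13 controls for single mouse genes, among them those of Gapdh, were kept. In the platform annotation 34958 of the 45050 tested had 1 symbol, 932 several and 9160 none; 34754 were found by gene identifier in the RefSeq table of GRCm38.p6, which gave names and gene order. Probe sets were tested with limma 3.58.1 in R 4.3.3 (lmFit, eBayes with an intensity trend, group as the only term), adjusted by Benjamini-Hochberg over all 45050 at a threshold of 0.05. The p-values measure the spread between these samples, which may be technical. Log2 differences are shSep15 minus control. Isoform pairs were tested with scipy 1.17.1 by exact permutation of the arrays.

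The genes and lists were chosen with earlier results of these data known. Every member was reported, with values on every array where it passed the threshold by a log2 difference of at least 0.5 or its isoforms were called in opposite directions; of the other pathway genes, those past the threshold were named. Leukocyte, endothelial, fibroblast and epithelial markers were taken as lists. Protein sequences of the isoforms were not used here. The number of arrays limits the precision.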

Additional observations from a re-analysis of the deposited data

How the results depend on the processing

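The alternatives were no eBayes trend, a replicate block, arrays shifted to the same median or quantile normalized again, the mean of a gene's probe sets, only probe sets above background, and each array left out. Of the 18 called genes 14 kept their call under every one of these and none changed direction; the exceptions were Pfkfb4, Gapdh, Pgk1 and Pdhb. The count of 14 higher genes ran from 12 to 14 and that of 4 lower ones from 3 to 5. Pdk2, near background and not called, was called lower with either rescaling and with the mean of probe sets (limma adjusted p from 0.0424 to 0.0498). Of the 15 other pathway genes called, 7 kept their call throughout; with 1 array left out, 6 to 7 were higher and 4 to 7 lower, the count of lower genes being 4 without control 1, control 2, shSep15 2 or shSep15 3. All 9 isoform shifts kept their sign under the alternatives run for them; with 1 array left out, that of Pfkfb2 against Pfkfb4, 0.57 (log2) with all arrays, ran from 0.39 to 0.79 and that of Pdk1 against Pdk3 from 0.75 to 1.12.

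The deviations of same-numbered samples from their group means correlated at 0.38, −0.15 and −0.02 for repeats 1, 2 and 3. Whether the repeat numbers pair the samples was not tested, since differently numbered samples were not compared. With the repeat number as a replicate block, 13 members were higher and 4 lower, the call of Gapdh being lost (limma adjusted p = 0.0693), and 8 other pathway genes were higher and 6 lower. RMA values have no detection call; of the 6 genes near background none was called on its brightest probe set with the main settings, which does not show that they did not differ, and Pdk2 and the dimmer Pfkfb3 probe set were called as given above.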
